A study of Mus musculus with 144 samples.

Results

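The genes described here are 9 that encode steps of mitochondrial fatty acid oxidation and of ketone body formation: Cpt1a, Cpt2 and Slc25a20 of the carnitine shuttle, Acadm, Acadl and Acadvl, which are acyl-CoA dehydrogenases, Hadha and Hadhb, the subunits of the trifunctional protein, and Bdh1 of ketone body metabolism. They were picked by symbol out of 21869 genes in the count tables. All 9 were tested in liver among 11926 genes with enough reads, and 8 in brown adipose tissue (BAT) among 10966, since Bdh1 had too few reads there. They were followed over the day in liver under 5 feeding regimens and in BAT under 2 of them.

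Polyadenylated RNA was sequenced from wild-type male C57BL/6J mice aged 6 months that had been kept in 12 h light and 12 h dark. Mice fed ad libitum (AL) had food at all hours. Under time restriction, food was unlimited but offered for 6 h only, from the start of the dark phase (TR-night) or of the light phase (TR-day), and under caloric restriction 70% of baseline intake was given in the same windows (CR-night, CR-day) for 10 weeks. Tissue was then taken every 4 h over 2 days in constant darkness, so that times are circadian times (CT), with CT 0 the start of the former light phase and CT 12 that of the former dark phase. The mice lived with running wheels, and no group carried a transgene or drug. Each liver regimen has 24 libraries, 1 of letter A and 1 of letter B at each of 12 times, and the series text treats the letters as biological replicates. BAT has AL libraries of letter A alone (12) and CR-day libraries of letter B alone (11 with counts), so that regimen and letter cannot be told apart there.

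Fatty acids enter mitochondria as carnitine esters. Cpt1a, on the outer membrane, makes the ester and is the regulated step in liver, Slc25a20 carries it across the inner membrane, and Cpt2 turns it back into an acyl-CoA in the matrix. There Acadvl, Acadl and Acadm take the first dehydrogenation step for very long, long and medium chains, and Hadha and Hadhb carry out the remaining steps on long chains. In liver much of the resulting acetyl-CoA becomes ketone bodies during fasting, with Bdh1 interconverting acetoacetate and beta-hydroxybutyrate. Brown fat burns fatty acids for heat and has muscle-type Cpt1b as its main carnitine palmitoyltransferase on the outer membrane.

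The liver libraries held 5830040 to 26649153 reads each and those of BAT 6978002 to 11607273. Reads of mitochondrially encoded transcripts averaged 13.3% in the letter B libraries of AL liver, 13.7% in the letter A libraries of CR-day liver, 22.8% in AL libraries of letter A, and 27.1% to 32.1% in all remaining liver sets. The first 2 of these sets thus stand apart from the rest, and level differences between liver regimens are given below with their values within each letter. At equal times the residuals of AL and CR-day livers correlated, across genes, at a median of -0.37 for equal letters and of 0.48 for unequal ones. Whether the letters of 1 regimen were exchanged or these 2 sets were processed apart cannot be told apart from the files, and it bears on each comparison of CR-day with AL and on each value within a letter. The summed marker genes fit the tissue labels: the summed hepatocyte markers lay between 38267 and 126565 CPM in liver and at or below 1.47 CPM in BAT, and brown adipocyte markers between 2450 and 5339 CPM in AL BAT and between 1921 and 3477 CPM in CR-day BAT, with medians of 4112 and 3112. In liver the brown adipocyte sum lay between 36.1 and 600 CPM. Of its 6 genes, Elovl3 had a higher median in liver than BAT, at 118 against 44.6 CPM (AL) and 40.0 against 24.7 CPM (CR-day). Ppargc1a had medians of 23.3 CPM in liver and 35.6 CPM in BAT under AL, and of 35.2 and 35.4 CPM under CR-day. The others were higher in BAT. Macrophage markers had medians of 74.2 CPM in AL and 67.4 CPM in CR-day liver and of 33.8, 30.0 and 25.0 CPM in CR-night, TR-day and TR-night liver. Red blood cell markers had medians of 114, 72.0, 48.5, 43.6 and 47.5 CPM in the same order. Of these, Alas2 had medians of 59.4 CPM in AL and 26.6 CPM in CR-day liver, while the globin gene Hbb-bs had 29.9 and 30.6 CPM. The medians of the other globin genes were at most 4.35 CPM. The part of these in the level differences was not tested. Skeletal muscle markers in BAT ran from 2.32 to 1774 CPM under AL with a median of 1342, and from 65.9 to 569 CPM under CR-day with a median of 376. A reading of time from 16 core clock genes lay over 4 h from the labelled time in 5 of 120 liver libraries, all of them day-fed. Levels are given as CPM, read counts scaled to a common library size over all 143 libraries together. In bulk tissue, fewer cells of a type and less RNA per cell cannot be told apart.

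The promoters of 3 genes that the liver results turn on, and the stretch shared by Hadha and Hadhb, are shown for reference. Each is the 250 bases before the gene's start in RefSeq (GRCm38.p6), 5′ to 3′ on the strand of the gene. Capitals mark AGGTCA on either strand, the hexamer bound by nuclear receptors such as PPARα, except in Hadhb. The Slc25a20 window holds no such match, and in Hadhb the capitals mark the 228 bases that also lie in the Hadha window, read there on the other strand.
Cpt1a, chr19:3323051-3323300, plus strand: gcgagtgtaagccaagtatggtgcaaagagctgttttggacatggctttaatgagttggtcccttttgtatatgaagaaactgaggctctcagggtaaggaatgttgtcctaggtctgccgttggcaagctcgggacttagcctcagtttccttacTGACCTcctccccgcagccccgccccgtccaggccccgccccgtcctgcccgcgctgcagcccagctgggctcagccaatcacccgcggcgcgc
Slc25a20, chr9:108661886-108662135, plus strand: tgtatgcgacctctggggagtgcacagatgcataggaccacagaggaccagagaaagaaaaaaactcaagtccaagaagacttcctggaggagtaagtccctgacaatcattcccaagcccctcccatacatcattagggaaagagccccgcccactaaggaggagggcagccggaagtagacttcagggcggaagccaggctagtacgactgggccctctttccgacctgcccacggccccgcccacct
Acadm, chr3:153944644-153944893, minus strand: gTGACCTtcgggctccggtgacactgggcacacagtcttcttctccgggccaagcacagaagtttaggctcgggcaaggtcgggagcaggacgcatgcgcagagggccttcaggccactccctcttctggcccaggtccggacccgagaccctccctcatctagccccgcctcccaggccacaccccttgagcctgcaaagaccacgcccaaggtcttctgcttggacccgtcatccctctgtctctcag
Hadhb, chr5:30155003-30155252, plus strand: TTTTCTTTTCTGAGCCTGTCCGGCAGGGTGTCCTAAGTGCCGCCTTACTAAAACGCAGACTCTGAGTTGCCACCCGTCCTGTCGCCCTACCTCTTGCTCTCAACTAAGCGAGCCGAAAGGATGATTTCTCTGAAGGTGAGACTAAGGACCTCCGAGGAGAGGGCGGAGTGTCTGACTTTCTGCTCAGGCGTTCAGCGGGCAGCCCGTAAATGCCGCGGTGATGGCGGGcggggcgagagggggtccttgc
AGGTCA stood in 3 of the 10 windows of the 9 genes (Bdh1 has 2), in Cpt1a 94 bases and in Acadm 249 bases before the start on the opposite strand and in Acadvl 87 bases before it on the same strand. Of all 32851 RefSeq windows of 250 bases, 14.0% held it. The E-box CACGTG was in none of the 10 windows and in 6.02% of all windows. The PPAR element, here AGGTCA repeated after 1 base of any kind and so containing the hexamer, was in none of the 10 and in 0.0335% of all. These are matches of letters in a short window and say nothing of binding.

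In mm10 with GENCODE vM21 the genes lie apart from one another except for 1 pair. Hadha (chr5:30118304-30155162, minus strand) and Hadhb (chr5:30155248-30184593, plus strand) are neighbours whose starts face each other. Cpt1a lies at chr19:3322334-3385733 on the plus strand, Cpt2 at chr4:107903981-107923610 on the minus strand and Slc25a20 at chr9:108662088-108684641 on the plus strand. Bdh1 is at chr16:31422280-31458901 on the plus strand, Acadm at chr3:153922357-153944632, Acadl at chr1:66830839-66863277 and Acadvl at chr11:70010183-70015411, all 3 on the minus strand. These starts are not those of RefSeq for every gene. The Cpt1a window above lies inside the gene as placed here, and the Slc25a20 and Hadhb windows reach into theirs. Part of the stretch shared by Hadha and Hadhb lies inside Hadha as placed here. Reads were counted over exons. Exons of Acadvl share up to 377 bases with Dvl2, those of Bdh1 293 bases with the antisense gene Gm15743 and those of Hadha 75 bases with Garem2, all on the opposite strand, and whether counting used the strand is not given in the sources used here.

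Over the day in liver, Cpt1a and Slc25a20 of the carnitine shuttle were rhythmic in each regimen, and Cpt2 and the matrix enzymes in some or none. Cpt1a passed in all 5 regimens, Slc25a20 in all 5, Cpt2 and Bdh1 under both night regimens and Acadm under TR-night, while Acadl, Acadvl, Hadha and Hadhb passed in none. The peak of Cpt1a lay close to CT 10 to 11 under AL and night feeding and close to CT 22 to 24 under day feeding. The test was edgeR's quasi-likelihood F test of a 24 h cosine and sine in each group, with p adjusted by Benjamini-Hochberg over all genes and a threshold of 0.05. By this rule 2 of the 9 genes were rhythmic under AL, where 12.4% of all genes tested were. The counts were 2 of 9 under CR-day (16.4% of all genes), 4 under CR-night (35.3%), 2 under TR-day (15.5%) and 5 under TR-night (26.4%). These counts are given beside the shares of all genes, and nothing particular to the 9 genes is read from them.

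Cpt1a in AL liver stood at 227, 172, 171 and 218 CPM at CT 0 (letter A on day 1 and day 2, then letter B) and at 420, 407, 406 and 540 CPM at CT 12. Every CT 12 library was above every CT 0 library. Under CR-day the order was turned around, with 481, 520, 564 and 528 CPM at CT 0 and 289, 191, 222 and 210 CPM at CT 12. Under TR-day the CT 0 libraries held 350, 614, 498 and 594 CPM and the CT 12 libraries 289, 258, 257 and 170 CPM. The lowest of these CT 0 libraries, 350 CPM, is 1 of the 5 whose clock genes read over 4 h from the label. Under both day regimens the groups at CT 0 and CT 12 did not overlap. Here and below, the times compared are high and low ones seen in these same libraries. A lack of overlap thus describes a profile and does not test its rhythm, and its share over all genes was not counted.

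The night-fed livers gave the widest swings of Cpt1a. Under CR-night it stood at 649, 620, 473 and 684 CPM at CT 12, when food was offered, and at 188, 190, 131 and 155 CPM at CT 20. Under TR-night the values were 660, 635, 520 and 643 CPM at CT 12 and 147, 197, 160 and 120 CPM at CT 20. The lowest CT 12 library of either regimen was well above the highest CT 20 library.

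The fitted peak of Cpt1a was at CT 11.12 ± 0.60 h (SE) under AL, 22.40 ± 0.55 h under CR-day, 10.11 ± 0.38 h under CR-night, 23.56 ± 0.73 h under TR-day and 10.86 ± 0.38 h under TR-night. Relative to the start of food the fitted peak lay at -1.60 h (CR-day), -1.89 h (CR-night), -0.44 h (TR-day) and -1.14 h (TR-night), and for TR-day this is within 1 SE of the start. The fitted peak was 2.25 times the trough under AL, 2.39 times under CR-day, 3.55 times under CR-night, 1.94 times under TR-day and 3.61 times under TR-night. Adjusted p from edgeR's quasi-likelihood test was 6.39e-07, 1.67e-07, 3.79e-14, 5.58e-05 and 1.67e-14 in that order of regimens. The TR-day call was lost with letter A alone (adjusted p = 0.066) and on sampling day 1 alone (0.28), and it held without the 5 libraries read off their label (4.38e-06).

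**Figure D1:**
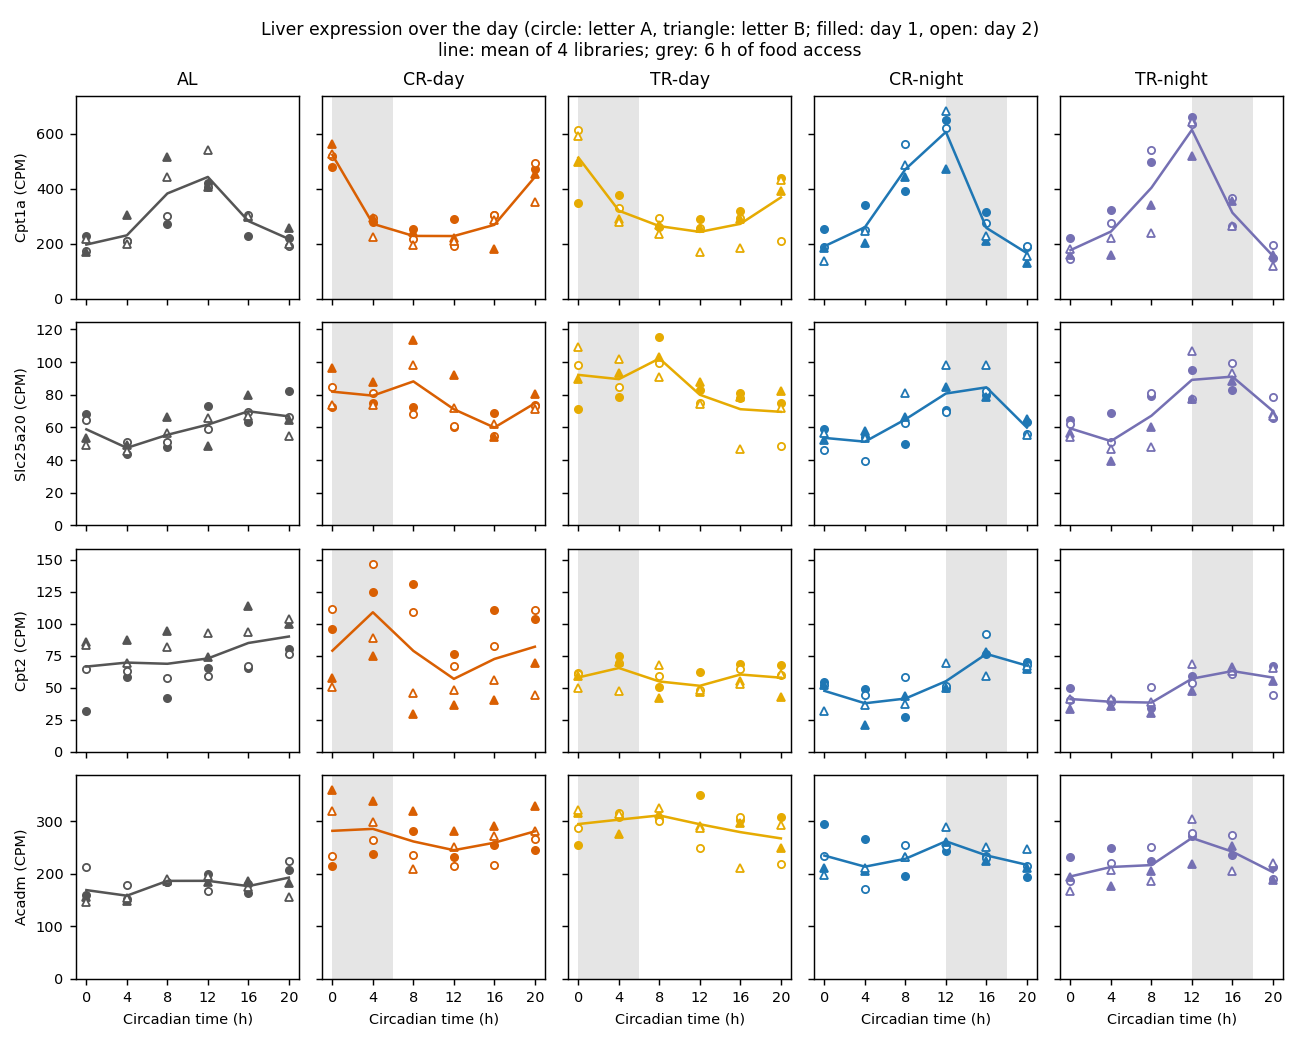
CPM of Cpt1a, Slc25a20, Cpt2 and Acadm (rows) against circadian time in hours in the 5 liver regimens (columns). Circles are letter A and triangles letter B, filled on day 1 and open on day 2, the line joins the means of the 4 libraries at each time, and grey marks the 6 h of food. Cpt1a is high at CT 12 under AL and night feeding and at CT 0 under day feeding, where its 4 libraries under CR-day lie between 481 and 564 CPM.

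Slc25a20, the carrier of the inner membrane, peaked about 4 to 6 h after Cpt1a in each regimen, a lag that was not tested. In AL liver it stood at 43.7, 51.1, 49.1 and 45.8 CPM at CT 4 and at 63.1, 69.6, 79.8 and 66.8 CPM at CT 16. Under TR-day the high time was CT 8, with 115, 99.4, 103 and 91.1 CPM, against 74.9, 48.6, 82.5 and 72.1 CPM at CT 20. In both regimens the 2 times did not overlap.

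Under CR-day Slc25a20 stood at 72.5, 68.3, 114 and 98.1 CPM at CT 8 and at 68.8, 54.4, 54.0 and 62.3 CPM at CT 16. Here the ranges overlap by a small margin. Under CR-night the values were 79.6, 82.0, 78.4 and 97.9 CPM at CT 16 and 54.1, 39.5, 58.0 and 53.4 CPM at CT 4, and under TR-night 83.2, 99.4, 88.2 and 93.4 CPM at CT 16 and 69.0, 51.2, 39.5 and 46.6 CPM at CT 4. All CT 16 libraries of the night-fed livers were above all their CT 4 libraries.

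The fitted peak of Slc25a20 lay at CT 16.92 ± 0.97 h under AL, 13.97 ± 0.64 h under CR-night and 14.70 ± 0.58 h under TR-night. Under day feeding it lay at CT 3.94 ± 1.12 h (CR-day) and 5.56 ± 0.90 h (TR-day). In each restricted regimen the peak fell within the 6 h of food, 1.97 h to 5.56 h after its start. Amplitudes, the log2 distance from mean to peak, were 0.25 (AL), 0.21 (CR-day), 0.37 (CR-night), 0.27 (TR-day) and 0.41 (TR-night), each with an SE of 0.06. Adjusted p from edgeR's quasi-likelihood test was 0.0118, 0.0384, 7.4e-06, 0.009 and 1.67e-06 in that order. The CR-day call was lost with letter A alone (0.14), with letter B alone (0.067) and without the libraries of unusually wide residuals (0.08), the AL call with letter B alone (0.26) and the TR-day call with letter A alone (0.085).

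Cpt2, the matrix-side transferase, was rhythmic by the test in the night-fed livers. Under CR-night it stood at 76.1, 92.0, 78.2 and 59.6 CPM at CT 16 and at 49.4, 44.6, 21.0 and 37.0 CPM at CT 4, without overlap. Its peak was at CT 17.13 ± 0.81 h with an amplitude of 0.54 ± 0.11 (edgeR's quasi-likelihood test, adjusted p = 0.000514). Under TR-night the libraries held 62.1, 60.9, 66.0 and 63.5 CPM at CT 16 against 33.9, 50.4, 30.4 and 39.3 CPM at CT 8. That peak was at CT 16.37 ± 1.07 h with an amplitude of 0.41 ± 0.11 (adjusted p = 0.0106), and the call was lost with letter A alone (0.076). In the night-fed livers the fitted peaks of Cpt1a, Slc25a20 and Cpt2 followed each other in that order, between CT 10.11 and CT 17.13. This order was not tested. Under TR-night the peaks of Slc25a20 and Cpt2 were at CT 14.70 ± 0.58 h and CT 16.37 ± 1.07 h.

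Bdh1, the ketone body dehydrogenase, peaked earlier in the same livers. Under CR-night it stood at 65.1, 149, 103 and 90.3 CPM at CT 8 and at 34.4, 56.5, 40.7 and 54.1 CPM at CT 16, without overlap. Under TR-night it stood at 113, 85.9, 90.1 and 163 CPM at CT 12 and at 60.3, 28.8, 67.3 and 65.9 CPM at CT 20. The fitted peaks were at CT 5.70 ± 1.16 h (amplitude 0.37 ± 0.11) and CT 8.68 ± 0.95 h (amplitude 0.45 ± 0.11). Adjusted p from edgeR's quasi-likelihood test was 0.0173 under CR-night and 0.00414 under TR-night. Both calls were lost with letter B alone, at 0.11 and 0.076. Acadm, the medium-chain dehydrogenase, stood under TR-night at 272, 278, 218 and 305 CPM at CT 12 and at 232, 186, 193 and 168 CPM at CT 0. These ranges overlap, the peak was at CT 12.53 ± 1.02 h, the amplitude 0.20 ± 0.05 and the adjusted p 0.0125, lost with letter A alone (0.13).

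**Figure D2:**
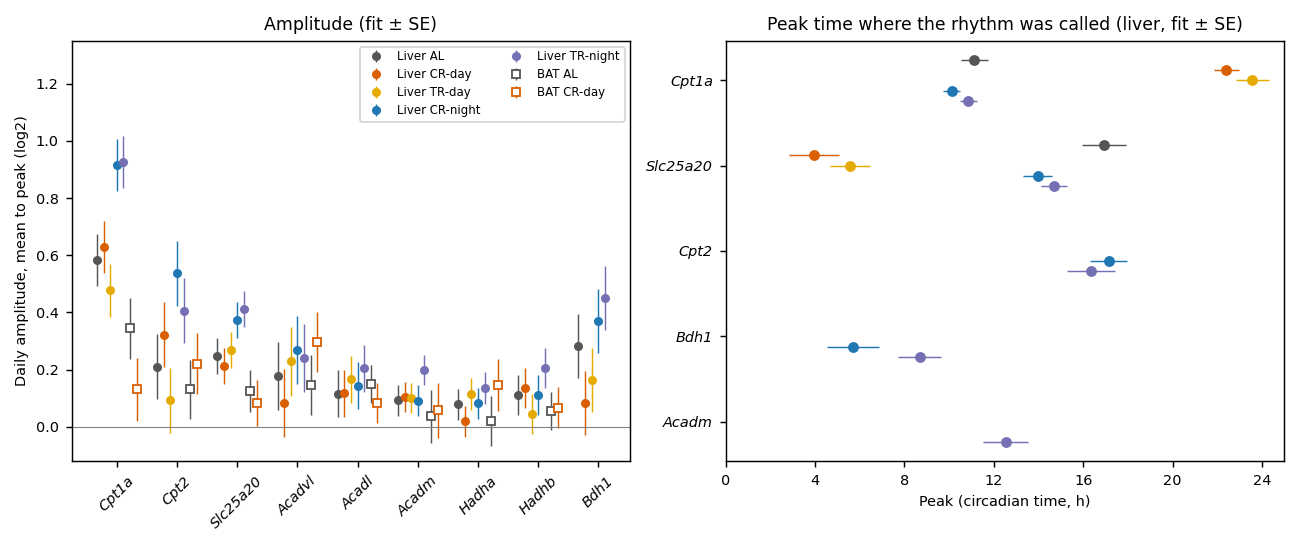
Left, amplitude of a 24 h cosine (log2 scale, mean to peak, ± SE) of the 9 genes in the 5 liver and 2 BAT groups. Right, peak time in circadian hours (± SE) where the rhythm passed the test. Cpt1a has the highest liver amplitudes, up to 0.93 under TR-night, and its peaks fall at CT 10.11 to 11.12 under AL and night feeding and at CT 22.40 and 23.56 under day feeding.

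The rhythms of Cpt1a and Slc25a20 differed between day-fed and AL livers and between day-fed and night-fed livers, by 9 to 12 h. For CR-day against AL, 2 of 9 genes passed the test of a difference in the 24 h terms, where 21.9% of all genes did. Cpt1a peaked 11.27 ± 0.81 h later (edgeR's quasi-likelihood test, adjusted p = 2.55e-13) and Slc25a20 11.02 ± 1.48 h later (0.000185). For TR-day against AL, again 2 of 9 passed (16.3% of all genes): the shift was -11.56 ± 0.94 h for Cpt1a (adjusted p = 6.01e-11) and -11.36 ± 1.32 h for Slc25a20 (4.9e-05). A shift of this size has no sure direction on a 24 h clock. The Slc25a20 differences were lost on sampling day 2 alone (CR-day, 0.084) and on day 1 alone (TR-day, 0.080). Cpt2 missed the threshold for CR-day against AL (0.0535), but passed it without the libraries read off their label (0.032), with letter A alone (0.043) and with DESeq2 (0.049).

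Between the feeding windows, 3 of 9 genes differed in rhythm under caloric restriction, against 34% of all genes. The CR-day peak lay -11.71 ± 0.67 h from that of CR-night for Cpt1a (edgeR's quasi-likelihood test, adjusted p = 1.4e-18), -10.03 ± 1.30 h for Slc25a20 (1.46e-06) and 8.41 ± 1.57 h for Cpt2 (0.000131). Under time restriction 2 of 9 differed (25.8% of all genes), by -11.30 ± 0.82 h for Cpt1a (1.32e-16) and -9.14 ± 1.07 h for Slc25a20 (2.18e-07). The log2 amplitude of Cpt1a under TR-day minus that under TR-night was -0.45 ± 0.13, a part of the difference that was not tested by itself. Cpt2 (0.0536) and Acadm (0.0777) missed the threshold for TR-day against TR-night, and with letter B alone both passed it, each at 0.023. Without the libraries read off their label both passed too, at 0.035 and 0.046.

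Between night feeding and AL, and between CR and TR within the same window, no difference in the rhythm of the 9 genes was called. The count was 0 of 9 for CR-night against AL (0.0252% of all genes) and 0 of 9 for TR-night against AL (0.00839%), by edgeR's quasi-likelihood test and by DESeq2. In each of these comparisons 2 genes, Cpt1a and Slc25a20, had an unadjusted p under 0.05. It was also 0 of 9 for CR-day against TR-day (0.00839%) and for CR-night against TR-night (0%), by both tools, with 0 genes at an unadjusted p under 0.05. A p that misses the threshold does not show that the rhythms were alike.

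Averaged over the day, Acadm was higher in each of the 4 restricted regimens than under AL, in either letter, though on the scale of the deposited RPKM the difference under TR-night turned. Its values (lowest, median and highest of 24 libraries) were 146, 182 and 224 CPM under AL, 209, 266 and 359 CPM under CR-day, 171, 232 and 295 CPM under CR-night, 210, 301 and 349 CPM under TR-day and 168, 219 and 305 CPM under TR-night. The day-fed livers overlap the AL livers only at the edge, and the medians of the night-fed livers lie between. The log2 difference in level from AL was 0.59 ± 0.06 under CR-day (edgeR's quasi-likelihood test, adjusted p = 1.3e-15) and 0.70 ± 0.06 under TR-day (1.62e-19). It was 0.37 under CR-night (4.67e-09) and 0.31 under TR-night (4.61e-07). Within letter A these differences were 0.39, 0.66, 0.33 and 0.34, and within letter B 0.79, 0.76, 0.43 and 0.28, in the order CR-day, TR-day, CR-night and TR-night. Of all genes, 19.6%, 80.4%, 79.2% and 80.7% were called in these comparisons, in the same order. Fitted with limma on log2(RPKM + 0.5), Acadm was at 0.50, 0.31, 0.02 and -0.13 in the same order, and the median of all genes itself moved to -0.06, -0.31, -0.28 and -0.33 on that scale. When counts were summed per regimen and letter, which leaves 2 values a regimen, none of the liver level differences of the 9 genes given here or below was called.

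For CR-day against AL, 5 of 9 genes were higher, where 12.6% of all genes were, and 0 were lower, where 6.98% were (19.6% called in all). The median log2 difference over the 9 genes was 0.22 and over all genes tested 0.01. Slc25a20 rose by 0.34 ± 0.06 (adjusted p = 3.05e-05), from 43.7, 60.9 and 82.0 CPM to 54.0, 73.5 and 114 CPM, and it was higher within letter A (0.20) and letter B (0.48). Acadl rose by 0.61 ± 0.08 (1.07e-08) over all libraries and Hadhb by 0.43 ± 0.07 (1.78e-06), but within letter A the differences were -0.07 and -0.03 and within letter B 1.23 and 0.88. Hadha rose by 0.22 ± 0.06 (0.00392), with 0.35 in letter A and 0.07 in letter B, and after a correction for GC content it was not called (0.15).

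Cpt2, Acadvl and Bdh1 lay above AL in letter A and below it in letter B under CR-day. Their log2 differences from AL were 0.78, 0.47 and 0.48 in letter A and -0.76, -0.39 and -0.45 in letter B, against 0.07, 0.08 and 0.05 over all libraries, where none was called. In CPM, Cpt2 had medians of 64.1 and 90.3 in AL letters A and B and of 110 and 49.6 in CR-day letters A and B. These are the letters whose mitochondrial read share differs as given above, and the part of that share in the differences was not tested. Cpt1a did not pass for CR-day against AL (0.15, adjusted p = 0.198), with 171, 264 and 540 CPM under AL and 180, 291 and 564 CPM under CR-day. It was at 0.35 in letter A alone, where it passed (0.0037), and at -0.034 in letter B alone.

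**Figure D3:**
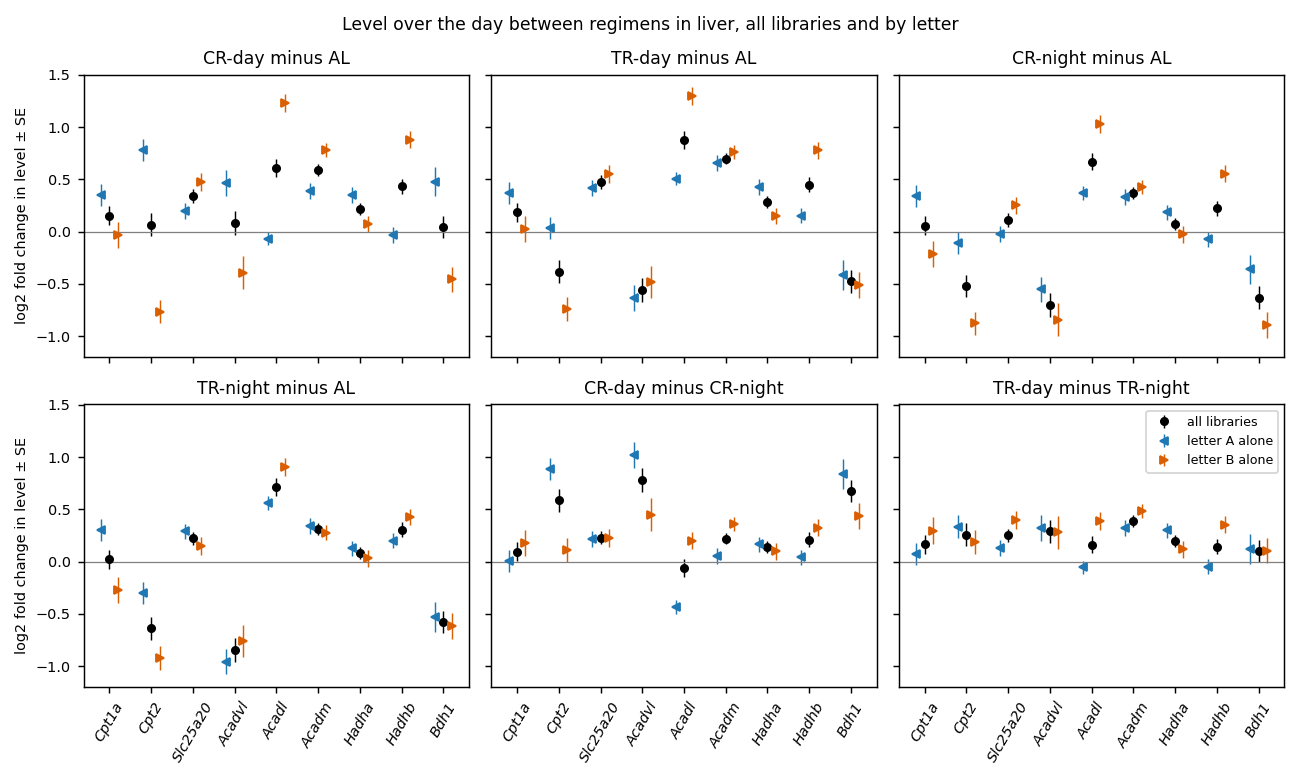
Log2 difference in level over the day (± SE) of the 9 genes in 6 liver comparisons, from all libraries, from letter A alone and from letter B alone. Acadm lies above 0 in all 3 fits of the 4 comparisons with AL, while Cpt2, Acadvl and Bdh1 for CR-day against AL lie above 0 in letter A and below 0 in letter B.

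For TR-day, CR-night and TR-night against AL the share of all genes called was 80.4%, 79.2% and 80.7%, so a call there sets no gene apart. Under TR-day 5 of 9 genes were higher and 3 lower (38.3% and 42.1% of all genes), under CR-night 3 and 3 (38.1% and 41.1%) and under TR-night 4 and 3 (39.4% and 41.3%). Acadl, the long-chain dehydrogenase, was higher in all 3 (0.87, 0.67 and 0.71), also in letter A (0.51, 0.37 and 0.56) and letter B (1.29, 1.03 and 0.90), but the differences fell to 0.35, 0.18 and 0.18 after the GC correction. Acadvl, for very long chains, was lower in all 3, at -0.56, -0.70 and -0.85 over all libraries, at -0.63, -0.55 and -0.96 in letter A, at -0.48, -0.84 and -0.76 in letter B and at -0.08, -0.25 and -0.34 after the GC correction. Bdh1 was lower by a similar amount (-0.47, -0.63 and -0.58), at -0.41, -0.36 and -0.53 in letter A and -0.51, -0.89 and -0.62 in letter B, with -0.08, -0.26 and -0.16 after the GC correction. Slc25a20 was higher under TR-day (0.47, adjusted p = 1.87e-10), in letter A (0.42), in letter B (0.55) and after the GC correction (0.39).

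The direction of Hadhb against AL turned with the correction. It was 0.45 under TR-day, 0.23 under CR-night and 0.30 under TR-night over all libraries, 0.15, -0.07 and 0.20 in letter A, 0.78, 0.56 and 0.43 in letter B, and -0.15, -0.34 and -0.31 after the GC correction, under which the median of all genes was -0.12, -0.10 and -0.12. Cpt2 was lower than under AL in these regimens (-0.38, -0.52 and -0.64), with 0.03, -0.11 and -0.30 in letter A against -0.74, -0.88 and -0.92 in letter B. The AL libraries of letter B are those with the low mitochondrial share.

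TR-day against TR-night involves neither of the 2 sets of libraries that stand apart, and 3.42% of all genes were called. Of the 9 genes 3 were higher under TR-day than TR-night, where 1.65% of all genes were, and 0 were lower, where 1.77% were. The median log2 difference was 0.20 over the 9 genes and 0.00 over all genes. Acadm was higher by 0.39 ± 0.06 (edgeR's quasi-likelihood test, adjusted p = 1.6e-07), by 0.32 in letter A and 0.49 in letter B. Slc25a20, at 46.5, 82.5 and 115 CPM under TR-day and 39.5, 68.8 and 107 CPM under TR-night, was higher by 0.25 ± 0.06 (0.00878), with 0.13 in letter A alone (adjusted p = 0.3) and 0.40 in letter B. Hadha was higher by 0.20 ± 0.06 (0.0236), with 0.30 in letter A and 0.12 in letter B alone (0.5).

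For CR-day against CR-night 67.9% of all genes were called, and 7 of 9 genes were higher (37.8% of all genes) and 0 lower (30.1%). The largest differences were those of Acadvl (0.78), Bdh1 (0.68) and Cpt2 (0.59). In letter A they were 1.02, 0.84 and 0.89 and in letter B 0.45, 0.44 and 0.11. Acadm was higher by 0.22, with 0.05 in letter A and 0.36 in letter B. Slc25a20, Hadhb and Hadha, the other called genes, were at 0.21, 0.04 and 0.16 in letter A and 0.22, 0.33 and 0.10 in letter B. For CR-day against TR-day (69.5% of all genes called) 3 of 9 were higher (38.5% of all genes) and 1 lower (31%) over all libraries. They were Acadvl (0.64), Bdh1 (0.52), Cpt2 (0.45) and Acadl (-0.26, with 0.07 after the GC correction). In letter A they were at 1.10, 0.89, 0.75 and -0.57 and in letter B at 0.09, 0.06, -0.03 and -0.06, and none of the 9 was called with letter B alone. CR-night against TR-night gave 0 of 9 calls by edgeR's quasi-likelihood test, with 0.52% of all genes called and 0 of the 9 at an unadjusted p under 0.05, and DESeq2 also called none.

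The subunits Hadha and Hadhb did not keep a fixed proportion of reads. The ratio of Hadha to Hadhb CPM had a lowest, median and highest value of 2.01, 2.81 and 3.45 in AL liver, 1.01, 2.64 and 3.41 under CR-day, 1.61, 2.48 and 3.53 under CR-night, 1.60, 2.29 and 4.11 under TR-day and 1.89, 2.33 and 2.88 under TR-night. In AL and in CR-day liver these values pool letters whose ratios did not overlap, with letter B higher under AL and letter A under CR-day. Median Hadha and Hadhb were 258 and 111 CPM in AL letter A and 273 and 84.9 CPM in AL letter B. Under CR-day they were 322 and 110 CPM in letter A and 290 and 146 CPM in letter B. No GC correction was applied to the ratio. In BAT its lowest, median and highest values were 0.774, 0.931 and 1.01 under AL and 0.892, 1.05 and 1.14 under CR-day. All AL libraries of BAT lay below all AL libraries of liver. The exons summed by the authors' counting are 8730 bases for Hadha and 6595 bases for Hadhb, so the ratio is not one of molecules.

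**Figure D4:**
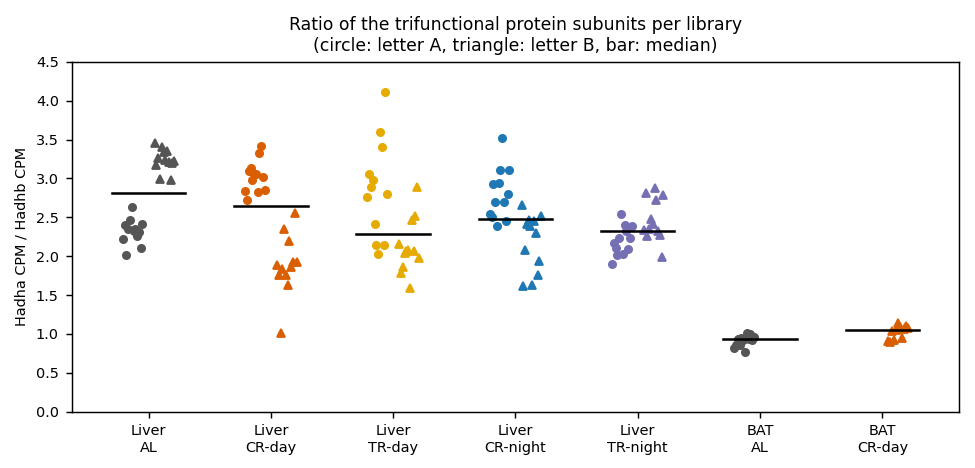
Ratio of Hadha to Hadhb CPM in each library, by group and letter, with the median as a bar. Liver medians lie between 2.29 and 2.81 and BAT medians at 0.931 and 1.05, and the letters of AL and of CR-day liver sit apart from each other.

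Between tissues, BAT held more of the 7 genes of carnitine transport past the outer membrane and of beta-oxidation, from 2.02 times the mean liver level for Cpt2 to 13.6 times for Hadhb in CPM under AL, and less of Cpt1a and Bdh1. Cpt1a stood at 171, 264 and 540 CPM in AL liver and at 6.19, 9.36 and 12.8 CPM in AL BAT, a log2 difference of -4.87 ± 0.14 (adjusted p = 1.04e-64). Bdh1 stood at 46.7, 118 and 189 CPM in AL liver and at 0, 0.716 and 0.988 CPM in AL BAT, where the libraries held 0 to 9 reads with a median of 4.5. Its difference of -7.80 ± 0.25 rests on those few reads. The share of all genes called between the tissues under AL was 79.7% (36.5% higher in BAT, 43.1% lower) with a median log2 difference of -0.11, so the sizes rather than the calls describe these genes. Mitochondrially encoded transcripts averaged 61.4% of reads in BAT (52.4% to 71.6%) and 25.9% in liver. Scaling without them changed no call of the 9 genes.

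Hadhb gave the largest excess in BAT, with 70.5, 91.2 and 124 CPM in AL liver and 1044, 1319 and 1494 CPM in AL BAT (3.76 ± 0.08). Acadl followed with 128, 186 and 280 CPM in liver and 1683, 2263 and 2524 CPM in BAT (3.53 ± 0.10). Acadm reached 943, 1160 and 1508 CPM in BAT (2.74 ± 0.07). For these 3 genes, and also for Slc25a20, Acadvl and Hadha, every BAT library was above every liver library of the same regimen. The share of all genes without overlap between the tissues was not counted.

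Slc25a20 stood at 242, 318 and 365 CPM in AL BAT (2.39 ± 0.07), Acadvl at 576, 952 and 1104 CPM (2.31 ± 0.13) and Hadha at 881, 1228 and 1504 CPM (2.19 ± 0.07). Cpt2 had the smallest excess, with 31.9, 75.2 and 114 CPM in liver and 108, 157 and 194 CPM in BAT (1.02 ± 0.12, adjusted p = 7.61e-13), and it was the only gene of the 9 whose AL ranges overlapped between the tissues. Under CR-day the same signs were called for all 9 genes (78.5% of all genes called), at 3.04 for Hadhb, 2.84 for Acadl, 2.08 for Acadvl, 1.87 for Acadm, 1.85 for Hadha, 1.82 for Slc25a20, 0.70 for Cpt2, -4.97 for Cpt1a and -9.53 for Bdh1.

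Per kilobase of exon, the order of the genes differed between the tissues. In AL liver the highest mean levels were those of Acadl with 96.1 ± 20.5 CPM per kb (SD, n = 24), Acadvl with 68.0 ± 12.1 and Cpt1a with 68.0 ± 25.1. The lowest were Hadhb with 14.7 ± 2.6 and Slc25a20 with 12.4 ± 2.2, whose ranges overlap. In AL BAT Acadl led with 1112 ± 122 CPM per kb (SD, n = 12), followed by Acadvl with 337 ± 54.9 and Acadm with 303 ± 45.9, which overlap. Cpt2 (63.8 ± 9.7) and Slc25a20 (64.6 ± 6.8) did not differ beyond their spread there, and Cpt1a stood at 2.26 ± 0.53.

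**Figure D5:**
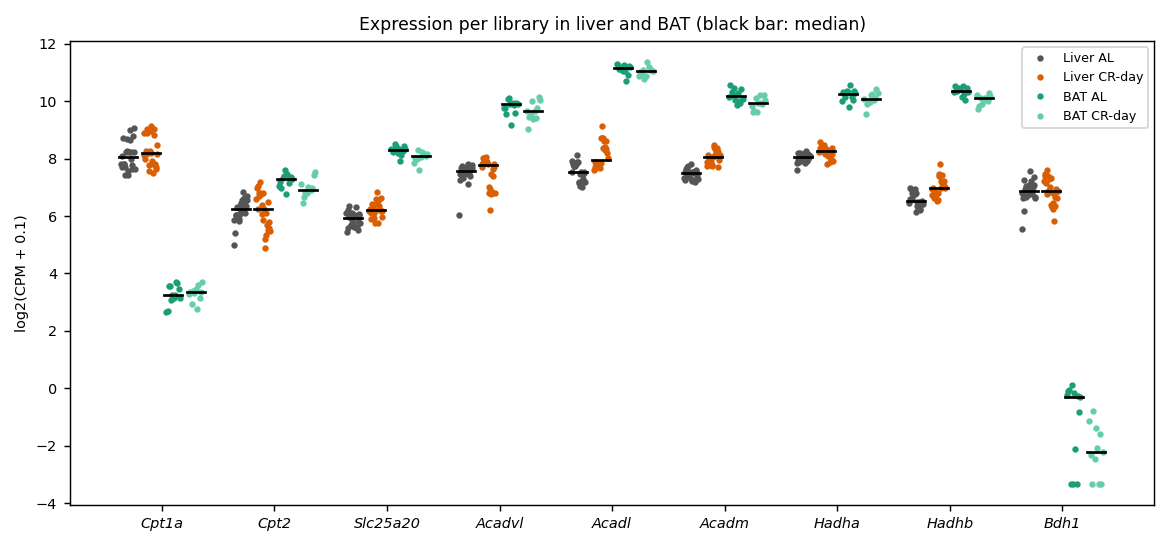
Log2(CPM + 0.1) of the 9 genes in each library of liver and BAT under AL and CR-day, with the median as a bar. Liver lies above BAT for Cpt1a and Bdh1 and below BAT for the other 7, with Cpt2 the closest pair at medians of 75.2 and 157 CPM under AL.

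In BAT no member passed the test for a rhythm. The count was 0 of 8 under AL (10.5% of all genes called) and 0 of 8 under CR-day (15.1%) by edgeR's quasi-likelihood test and by DESeq2, with 1 gene at an unadjusted p under 0.05 in each, Cpt1a under AL (adjusted p = 0.08) and Acadvl under CR-day (0.106). Cpt1a in AL BAT stood at 6.19 and 8.65 CPM at CT 0, at 11.8 and 12.8 CPM at CT 8 and at 11.8 and 12.6 CPM at CT 12. Its fitted peak, CT 11.46 ± 1.18 h, is given beside that of AL liver, CT 11.12 ± 0.60 h, with an amplitude of 0.35 ± 0.11 against 0.58 ± 0.09. Under CR-day the amplitude in BAT was 0.13 ± 0.11 and in liver 0.63 ± 0.09. The change of rhythm from AL to CR-day was called for 0 of 8 genes in BAT (12.1% of all genes; 1 at an unadjusted p under 0.05, Cpt1a at an adjusted 0.123) by edgeR and DESeq2, while limma on the RPKM, with the library that lacks counts, called Cpt1a at 0.044.

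The difference between the tissues in that change of rhythm was called for 0 of 9 genes (5.72% of all genes) by edgeR's quasi-likelihood test and by DESeq2, with 1 at an unadjusted p under 0.05, Cpt1a (adjusted p = 0.0859). By both tools the rhythms themselves did not pass as different between tissues under AL (0 of 9, 2.69% of all genes, 0 at an unadjusted p under 0.05) or CR-day (0 of 9, 2.73%, 1 at an unadjusted p under 0.05, Cpt1a at an adjusted 0.158). BAT has 1 library at each time of a sampling day and liver 2. Under AL the SE of the amplitude was larger in BAT than in liver for Cpt1a (0.107 against 0.091), Slc25a20 (0.073 against 0.063), Acadm (0.093 against 0.053) and Hadha (0.086 against 0.055). It was smaller in BAT for Cpt2 (0.102 against 0.114), Acadl (0.066 against 0.083), Acadvl (0.104 against 0.119) and Hadhb (0.066 against 0.070).

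Over all liver libraries the level over the day was called higher under CR-day than AL for Acadm, Slc25a20, Acadl, Hadhb and Hadha. None of these was called higher in BAT. In liver the rise of Acadl and Hadhb was seen in letter B and not in letter A, and that of Hadha mostly in letter A. In BAT the regimen cannot be told apart from the letter. In BAT, 1 of 8 genes passed for CR-day against AL, where 6.56% of all genes did, and it was lower, where 3.81% of all genes were. Hadhb stood at 1044, 1319 and 1494 CPM under AL and 851, 1102 and 1255 CPM under CR-day, a log2 difference of -0.30 ± 0.08 (edgeR's quasi-likelihood test, adjusted p = 0.0283). This call was lost on either sampling day alone. Acadm (-0.28, adjusted p = 0.0895), Slc25a20 (-0.23, 0.0828) and Cpt2 (-0.26, 0.131) missed the threshold, and 4 of the 8 had an unadjusted p under 0.05. In the same BAT libraries the summed skeletal muscle and brown adipocyte markers had lower medians under CR-day, as given above. Ucp1, the uncoupling protein of brown fat, was at 2984 CPM under AL and 1585 CPM under CR-day. Cidea (800 and 712), Cox8b (204 and 139) and Elovl3 (44.6 and 24.7) were lower too. Pparg (118 and 121) and Ppargc1a (35.6 and 35.4) were nearly level, as was the sum of 5 fat cell markers (5954 and 5987). Most of that sum was Fabp4 (4990 and 5128). Of its other genes, Adipoq (394 and 310) and Plin1 (680 and 586) were lower under CR-day. Lep (25.2 and 41.0) was higher and Retn (19.1 and 19.3) nearly level. The part of these markers in the level differences was not tested.

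The response to CR-day in BAT minus that in liver was called below 0 for 6 of 9 genes, where 1.82% of all genes were called below 0 and 1.17% above (2.99% in all). The median of this difference was -0.57 over the 9 genes and -0.02 over all genes tested. It was -0.87 ± 0.10 for Acadm (edgeR's quasi-likelihood test, adjusted p = 1.56e-10), -0.73 ± 0.12 for Hadhb (1.94e-05), -0.69 ± 0.14 for Acadl (0.000713) and -0.57 ± 0.11 for Slc25a20 (0.000286). Bdh1 (-1.74 ± 0.46, 0.0152) rests on few BAT reads, and Hadha was at -0.35 ± 0.10 (0.0411). With liver letter A alone the values were -0.67 for Acadm, -0.27 for Hadhb, -0.43 for Slc25a20, -0.48 for Hadha and -0.02 for Acadl, the last not called. With liver letter B alone they were -1.08, -1.20, -0.73, -0.23 and -1.34 in that order, with Hadha not called. Cpt1a (-0.10), Acadvl (-0.23) and Cpt2 (-0.32) did not pass, and Cpt2 was at -1.04 in letter A and 0.49 in letter B. On sampling day 2 alone 1 gene passed.

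Other genes of the pathway were followed in 4 lists: 10 of acyl-CoA supply and the carnitine system, 15 other matrix enzymes of beta-oxidation, 8 other ketone body genes and 8 regulators. Rhythms in AL liver passed for 3, 2, 2 and 2 of them in that order (12.4% of all genes), and under TR-night for 7, 6, 4 and 6 (26.4%). The rhythm differed between CR-day and AL for 7, 4, 4 and 3 genes, against 21.9% of all genes. The smallest p in each list belonged to Slc22a5, the carnitine transporter of the cell membrane (adjusted p = 2.77e-06), Eci2, an enoyl-CoA isomerase (2.92e-05), Slc16a1, which carries monocarboxylates such as ketone bodies (6.57e-07), and Ppargc1b, a coactivator (8.25e-06). For CR-night or TR-night against AL the count was 0 in each of the 4 lists by edgeR's quasi-likelihood test and by DESeq2, with 0.0252% and 0.00839% of all genes called. At an unadjusted p under 0.05 there were 1, 0, 1 and 0 genes for CR-night and 0, 2, 0 and 0 for TR-night.

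Peak times are given for 5 of these genes. Slc22a5 peaked at CT 13.41 ± 1.39 h under AL and 23.81 ± 0.61 h under CR-day, and Ppara, the fatty acid receptor that drives oxidation genes, at 11.45 ± 1.83 h and 22.17 ± 0.97 h. Under AL neither rhythm was called (edgeR's quasi-likelihood test, adjusted p = 0.11 and 0.253), so these AL peaks are uncertain. Acsl1, which activates long-chain fatty acids, peaked at CT 18.26 ± 1.19 h under AL and 2.70 ± 1.16 h under CR-day, close to Slc25a20. Slc16a1 peaked at CT 22.43 ± 0.68 h under AL and 12.45 ± 0.84 h under CR-day, and Acsl5, another acyl-CoA synthetase, at 1.86 ± 1.12 h and 11.35 ± 0.82 h.

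For levels under TR-day against TR-night, 5 of the 15 matrix enzymes were higher and 0 lower (1.65% and 1.77% of all genes), with Acad11 at 0.44, Eci1 at 0.36, Decr1 at 0.31 and Etfdh at 0.22. Of the carnitine and regulator lists 0 genes passed by edgeR's quasi-likelihood test or by DESeq2, with 3 and 0 at an unadjusted p under 0.05. Between AL BAT and AL liver, 9 matrix enzymes were higher and 2 lower in BAT (36.5% and 43.1% of all genes), with Etfb at 2.18 and Eci1 at 2.12. Cpt1b, the outer-membrane transferase of muscle and brown fat, stood at 2.48 ± 0.93 CPM (SD, n = 24) in AL liver and 309 ± 40.9 CPM (n = 12) in AL BAT, the reverse of Cpt1a. Oxct1, which spends ketone bodies, was higher in BAT by 5.85. In the difference of the responses to CR-day, BAT minus liver, 5 matrix enzymes were called below 0 (1.82% of all genes), among them Eci2 (-0.60), Acad11 (-0.59), Etfdh (-0.53) and Decr1 (-0.47).

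Over the 60 liver means by regimen and time, the 9 genes fell into different company. This likeness is Pearson's r of log2 CPM, given as a description, since the means share libraries and depth. The means were not centred by regimen, so r takes in level differences between regimens as well as profiles over the day. Cpt1a was most like Clmn (0.88), Acot12 (0.84) and Nr1d2 (0.83), and its closest fellow member was Hadhb at 0.43. Slc25a20 was closest to Pex11a (0.87), Decr1 (0.83) and Zc3h8 (0.81). Acadm was closest to Cyp4a10 (0.91), Cyp4a31 (0.90) and Cyp4a14 (0.87), fatty acid omega-hydroxylases, and Hadhb to Acadm (0.86), Decr1 (0.85) and Vnn1 (0.82). Acadvl was closest to Lcat (0.96) and Acaa2 (0.96), Acadl to Slc16a7 (0.91), Bdh1 to Flot1 (0.85) and Cpt2 to Plod1 (0.87).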

How the data were processed

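Polyadenylated RNA of 120 liver and 24 BAT samples was sequenced. Counts are raw reads per gene as deposited. The deposited RPKM values are those reads per kilobase of exon and library total, as the headers name them. FastQC, STAR, cutadapt and featureCounts are listed, without roles, in the submitters' processing notes; tool versions and the genome build are not given in the sources used here. RPKM times gene length was proportional to the counts in 143 of 143 libraries (coefficient of variation under 0.001). BAT CR-day at CT 0 of day 1 has RPKM but no counts and enters only the RPKM alternative. A further count column (1) could not be tied to a sample and was not used.

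Counts were tested with edgeR 4.0.16 in R 4.3.3: genes passed filterByExpr by group, libraries were scaled by TMM, and each group had a level and a 24 h cosine and sine. Quasi-likelihood F tests gave rhythm (2 terms), rhythm differences and level differences, with Benjamini-Hochberg adjustment over all genes and a threshold of 0.05. Liver, BAT and both tissues together were fitted separately, and liver against BAT comes from the joint fit of 12969 genes. Peak times and amplitudes are least squares fits to log2 CPM with a prior count of 2, with the spread pooled per tissue. Level SEs come from the test statistic. Alternatives included DESeq2 1.42.0, limma 3.58.1 on log2(RPKM + 0.5), a GC correction and leaving out each letter. The scripts were tested on simulated data.

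The members and gene lists were chosen with earlier results of these data known. All 9 members are named, up to 4 genes with the smallest p of each list in a comparison, and the 3 genes most like each member or the closest of them; some of these are not reported here. Beyond the series text nothing shows how letters relate to mice, so p-values measure the spread between these samples.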

Additional observations from a re-analysis of the deposited data

Results flagged for a closer look

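Of 60 sets of 4 liver libraries of Cpt1a and Slc25a20 at 1 time and regimen, 5 had a library far from the other 3, where chance gives about 1 in 20. For Cpt1a in AL liver these were a letter B library of day 1 at CT 4 (304 CPM against 201 to 210; its gap was 0.916 of the range of the set), a letter B library of day 2 at CT 12 (540 against 406 to 420; 0.898) and a letter A library of day 1 at CT 16 (228 against 298 to 305; 0.909). For Cpt1a under CR-day it was a letter B library of day 1 at CT 16 (180 against 287 to 305; 0.86). For Slc25a20 under TR-day it was a letter B library of day 2 at CT 16 (46.5 against 78.0 to 81.2; 0.909).

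The log2 response of the level to CR-day differed between BAT and liver by edgeR's quasi-likelihood test, BAT minus liver, for Acadm (-0.87), Hadhb (-0.73), Acadl (-0.69), Slc25a20 (-0.57), Hadha (-0.35) and Bdh1 (-1.74). In BAT the regimen cannot be told apart from the letter.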

How the results depend on the processing

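Over 257 results of the 9 genes and 16 alternatives, 3464 of 3763 checks kept direction and side of the threshold, 142 lost the call, 115 gained it and 42 turned direction. DESeq2 size factors and scaling without mitochondrially encoded genes changed no call, and all 18 level differences between BAT and liver held under each alternative run. The letters did not pair the samples by the rule used: between regimens, the residuals of libraries at equal times correlated at a median of 0.0337 for equal letters and of 0.0586 for unequal ones, and for AL with CR-day at -0.37 and 0.48. BAT holds 1 letter a regimen, and Bdh1 has few reads there. Where no cause is named, the cause was not tested. Leaving out the libraries read off their label was chosen after seeing the data.

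Counts of calls moved as follows. With sampling day 1 alone 5 rhythms were called against 15 in all, 3 rhythm differences between day and night feeding against 5, and 2 level differences between CR and TR against 4. Rhythm differences of day-fed from AL livers numbered 4, and 7 after the GC correction and 9 with the replicate block and the GC correction. For day against night feeding they numbered 10 with the replicate block, 11 after the GC correction, 12 with both, and 5 to 8 with a letter left out. Leaving out a letter gave 0 to 11 level differences between CR and TR, and limma on RPKM gave 8. Summing counts per regimen and letter, which leaves 2 values a regimen, gave 0 level calls in the comparisons of day-fed with AL (13 before), night-fed with AL (13), day with night (10) and CR with TR (4). On sampling day 2 alone 4 levels differed between day and night feeding, and 1 response of the level differed between BAT and liver against 6. The BAT level call (1) became 0 without the filter, on either day alone and with limma on RPKM. The BAT rhythm change of Cpt1a gained a call with limma on RPKM (1), and so did its rhythm response between tissues with the replicate block, alone or with the GC correction (1 each).

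Directions (log2 levels) turned as follows. After the GC correction, and with the replicate block and the GC correction in second place, Hadhb was at -0.15 and -0.16 for TR-day against AL, -0.34 and -0.34 for CR-night, -0.31 and -0.31 for TR-night and 0.40 and 0.41 for CR-day against TR-day. In the same order Acadl was at 0.25 and 0.25 for CR-day against CR-night and 0.074 and 0.084 against TR-day, and Hadha at -0.15 and -0.14 for TR-night. For CR-night Hadha was at -0.13 with both corrections. With limma on RPKM, CR-night against AL was at -0.30 for Cpt1a, -0.23 for Slc25a20, -0.28 for Hadha and -0.12 for Hadhb. TR-night against AL was at -0.43 for Cpt1a, -0.21 for Slc25a20, -0.13 for Acadm, -0.36 for Hadha and -0.12 for Hadhb, and TR-day against AL at -0.11 for Hadha. CR-day against TR-day was at 0.29 for Cpt1a, 0.17 for Slc25a20, 0.20 for Acadm, 0.24 for Hadha, 0.28 for Hadhb and 0.0034 for Acadl, and CR-day against CR-night at 0.16 for Acadl.

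With a letter left out the ranges were, for CR-day against AL, -0.066 to 1.23 for Acadl, -0.032 to 0.88 for Hadhb, -0.39 to 0.47 for Acadvl, -0.45 to 0.48 for Bdh1 and -0.76 to 0.78 for Cpt2. They were -0.74 to 0.035 for Cpt2 under TR-day against AL, -0.073 to 0.56 for Hadhb under CR-night against AL, -0.27 to 0.30 for Cpt1a under TR-night against AL and -0.028 to 0.75 for Cpt2 under CR-day against TR-day. For the level response of Cpt2 in BAT minus liver the range was -1.04 to 0.49.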
